A study of Mus musculus with 4 samples.

Results

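The genes described here are 60 of the 50600 genes in the deposited table, and they had much lower values in Myh9 KO than in WT mouse embryonic stem (ES) cells. A gene belonged to the set when its lower WT value was at least 8 and at least 2 times its higher Myh9 KO value. Genes on chromosomes 6, 8, X, Y and MT were left out, as were the Zscan4, Tcstv, Usp17l, Pramel, H2-, Gst, Gpx, Slc and Zfp families, genes named Gm plus a number or ending in Rik, and 12 named genes such as Myh9, Tmem92, Grb10 and Zp3. Both thresholds were passed by 132 genes, 1.87% of those with a lower WT value of at least 8, and 72 of these were left out: 15 for their chromosome, 46 for a family or name pattern and 11 by name. What remains is a mixed collection defined by these values and by what was removed, and no shared function was part of the choice. The 60 genes are called the lost genes below.

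RNA was sequenced from OG2ES cells, a mouse ES cell line, in 2 Myh9 KO and 2 WT libraries. The labels give the genotypes as Myh9 KO and WT and the same culture for both, ES cell medium with 2i, a pair of kinase inhibitors used to keep naive pluripotency. They name neither the method of the knockout nor a clone, so what is particular to the KO line and what follows Myh9 loss cannot be told apart. Separate cultures are not stated for the replicates either, so each p-value covers only the spread of these 4 libraries, possibly a technical one.

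Myh9 encodes the motor subunit of non-muscle myosin IIA, which pulls on actin filaments and sets cortical tension and cell shape. ES cells in 2i transcribe many tissue-specific genes at a low level, and a small and changing share of them passes through a state that resembles the embryo at its first cleavage. In bulk RNA, fewer cells that transcribe a gene and less RNA per cell cannot be told apart.

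The deposited values were whole numbers that summed to between 992098 and 992317 in each library. They were normalized values without a stated unit, and the depth is unknown. Whether they were divided by transcript length is not stated, so levels are compared between libraries and not between genes. The libraries listed 11653 to 11947 genes above 0, and Pearson's r across tested genes was 0.988 within Myh9 KO, 0.991 within WT and 0.964 to 0.968 between groups. Myh9 itself had a value of 9 in each Myh9 KO library, against 83 and 100 in WT cells. The summed values of 11 ES cell markers were 8756 and 8589 in Myh9 KO cells, against 10018 and 10264 in WT cells. Such sums mostly follow the genes with the highest values. Dppa5a alone had 3438 and 3205 in Myh9 KO cells, against 4755 and 4841 in WT cells, and the median log2 fold change of the 11 markers was -0.05. Of 16 feeder fibroblast markers, 12 were at 0 in every library, Col1a1, Col1a2, Col3a1 and Postn among them, and the sums were 40 and 41 in Myh9 KO cells, against 54 and 58 in WT cells. Most of each sum was Fstl1, with 35 and 34 in Myh9 KO cells, against 50 and 52 in WT cells. Trophoblast markers summed to 225 and 232 in Myh9 KO cells, against 147 and 156 in WT cells, and 5 of 16 were at 0 in every library. Endoderm markers summed to 207 and 220 in Myh9 KO cells, against 241 and 243 in WT cells, with 7 of 16 at 0 in every library. Most of each sum was Sparc, with 155 and 162 in Myh9 KO cells, against 214 and 212 in WT cells. The median log2 fold change of the 8 tested endoderm markers was 0.6, so the sum and the typical marker moved in opposite directions. Neural and ectoderm markers summed to 130 and 128 in Myh9 KO cells, against 154 and 163 in WT cells, with 11 of 17 at 0 in every library. The part of these differences in the values of the lost genes was not tested.

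Because the rule chose the genes from this contrast, their fold changes are a description and carry no test. The median log2 fold change, Myh9 KO over WT on the log2(value + 1) scale, was -1.48 over the 60 genes and 0.0 over the 11231 genes tested. Folds of genes with low values come out too small on that scale. All 60 had passed the filter of a mean value of at least 1, which their WT values fixed. In limma over all tested genes, 45 of the 60 were called lower, where 5.83% of all tested genes were. The rule had chosen the 60 from the same values, so this excess follows from the choice and is no support. A call required an adjusted p under 0.05 both on the deposited values and with random decimals added. In simulated data many changed genes were missed this way, so a gene that was not called may still differ. Outside the families, names and chromosomes left out, 1.07% of the 5594 genes with a lower WT value of at least 8 met the rule. The mirror rule, with Myh9 KO in the place of WT, was met by 41 such genes, or 0.742% of 5527.

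**Figure D1:**
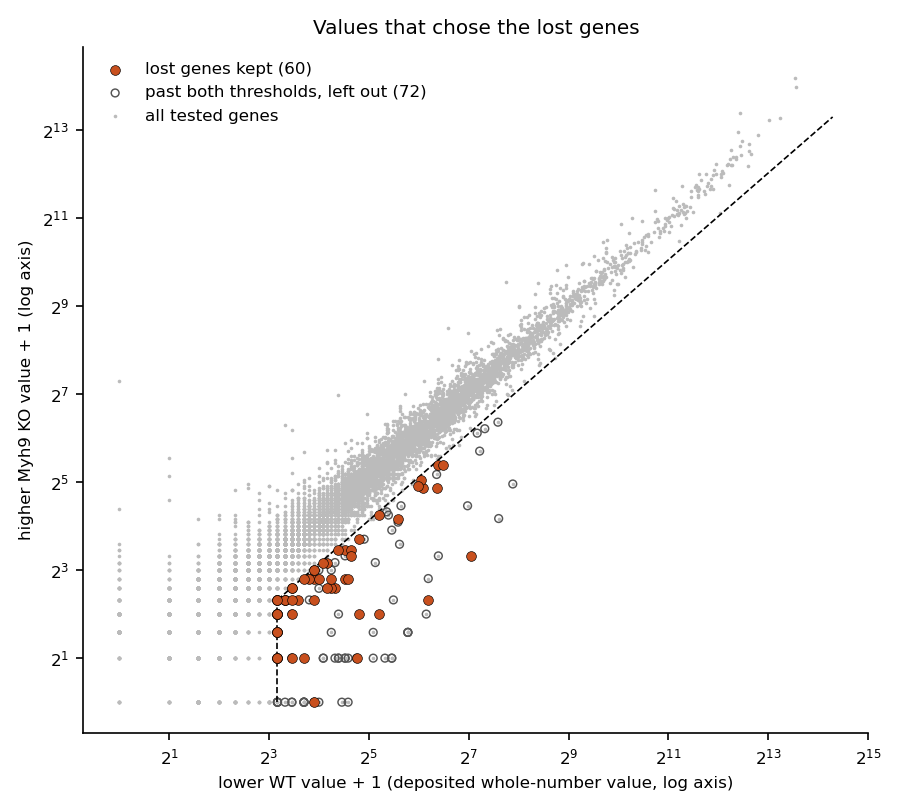
Each point is a tested gene, with its lower WT value plus 1 on the x axis and its higher Myh9 KO value plus 1 on the y axis, both on log axes. The 60 lost genes (filled) lie below the dashed lines of the rule together with the 72 genes left out (open circles), and many of the 60 lie next to a line.

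The thresholds pass through a dense part of the distribution. The lower WT value was exactly 8 in 16 of the lost genes, and the ratio was exactly 2 in 11. At the other end, 16 genes had a ratio of at least 4 and 20 genes had a lower WT value of at least 20. Tagln3, just inside the ratio, had values of 5 and 5 in Myh9 KO cells, against 10 and 10 in WT cells. Just outside it, Oas1a had 15 and 17 in Myh9 KO cells, against 35 and 33 in WT cells, a ratio of 1.94. Hnrnph3 and AU020206 followed with ratios of 1.92 and 1.91. Another 9 genes missed the set with a lower WT value of 7, among them Osr2, Ly6a and Arg2. The group median of the mean values was 4.0 in Myh9 KO cells and 14.5 in WT cells, so a change of 1 in a value weighs heavily for many of them. Both Myh9 KO libraries had equal values in 26 genes, and both WT libraries in 11. The Myh9 KO pairs were wider in places, with 3 and 1 in RP23-285L15.1 and 2 and 5 in Cryge. The widest WT pair was that of Platr3, whose WT libraries differed 1.36-fold.

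Sorted by known role, a grouping made after the genes were known, the 60 comprised 12 membrane and surface proteins, 8 cytoskeletal and small GTPase genes, 7 secreted or matrix proteins, 7 metabolic enzymes, 7 histones and nuclear proteins, 6 genes of apoptosis, stress and ubiquitin, 2 gamma-crystallins, 2 protein-coding genes to which no role is given here, and 9 non-coding or unconfirmed transcripts. The median log2 fold change ranged from -2.80 in the non-coding transcripts to -1.11 in the apoptosis, stress and ubiquitin genes, leaving aside the sets of 2. The genes lay on 17 chromosomes, with 9 on chromosome 2, and these counts were not compared with the share of all tested genes on each chromosome.

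**Figure D2:**
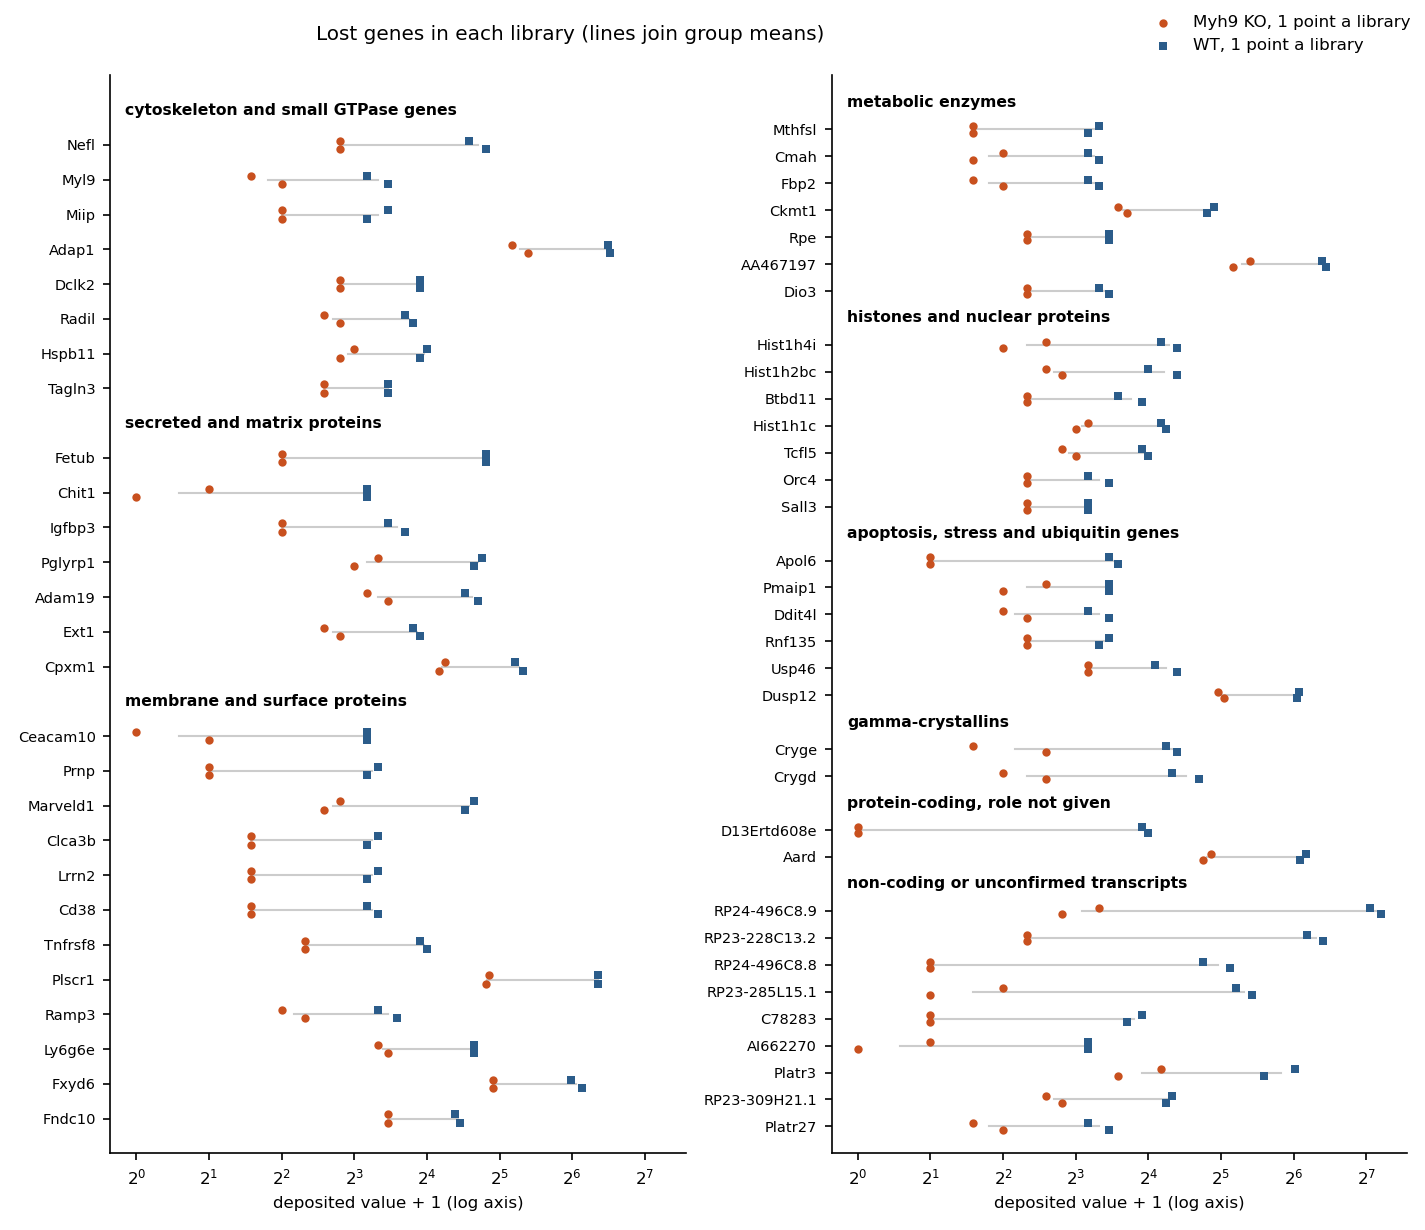
Value plus 1 of each of the 60 lost genes in every library, on a log axis, grouped by role, with Myh9 KO as circles and WT as squares. The groups do not overlap for any gene, which the rule fixes, and the widest gaps belong to D13Ertd608e and 4 of the clone-named transcripts at the lower right.

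Among the cytoskeletal genes, Myl9 is the closest to the targeted protein. It encodes a regulatory light chain of myosin II, the subunit whose phosphorylation switches the motor on. Myl9 (ENSMUSG00000067818, mm10 chromosome 2, 156775420 to 156781658) had values of 2 and 3 in Myh9 KO cells, against 8 and 10 in WT cells (log2 fold change -1.52, SE 0.22). Myl12a, which encodes another regulatory light chain, fell to 329 and 330 in Myh9 KO cells, against 468 and 438 in WT cells (log2 fold change -0.46, SE 0.04, adjusted p = 0.0303 in limma). It was the one called among 4 other tested light chains. Myl12b, a further regulatory light chain, had 373 and 399 in Myh9 KO cells, against 396 and 389 in WT cells (log2 fold change -0.02, adjusted p = 0.756 in limma), and the essential light chains Myl6 and Myl6b had log2 fold changes of -0.16 and 0.37. The promoter of Myl9 is shown because it was the single lost-gene promoter, of 41 with a sequence, that held a CArG box, the element bound by serum response factor. The window, chr2:156775278-156775337 on the plus strand of GRCm38.p6 from RefSeq, lies before the gene's start. The box, in capitals, begins at position -161 relative to the start that RefSeq gives, which is not the gene start given above. The box was searched on both strands and occurred in 1.23% of the 8476 promoters of tested genes.
Myl9: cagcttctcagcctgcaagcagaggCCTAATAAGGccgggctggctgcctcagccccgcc

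Other genes of this group act on filaments, microtubules or adhesion. Nefl, the light subunit of neurofilaments, had values of 6 and 6 in Myh9 KO cells, against 23 and 27 in WT cells. It overlaps Nefm, the medium subunit, on the opposite strand. Nefm had 3 and 2 in Myh9 KO cells, against 7 and 7 in WT cells (log2 fold change -1.21, SE 0.18, adjusted p = 0.0614 in limma). The library preparation described in the labels marks no strand, and 31.8% of the 50-base words of Nefl occur in Nefm, so their reads cannot be fully told apart. Tagln3, whose values are given above, is a neuronal relative of the actin-binding transgelins, and its relative Tagln2 rose to 134 and 134 in Myh9 KO cells, against 107 and 109 in WT cells (log2 fold change 0.31, SE 0.02, adjusted p = 0.0116 in limma).

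Adap1, a GTPase-activating protein for Arf that binds membrane phosphoinositides, had 35 and 41 in Myh9 KO cells, against 89 and 91 in WT cells. Radil, an effector of the small GTPase Rap in cell adhesion, had 5 and 6 in Myh9 KO cells, against 12 and 13 in WT cells. Dclk2, a doublecortin-like kinase that binds microtubules, had 6 in each Myh9 KO library, against 14 in each WT library. Both small GTPases concerned, Arf and Rap, act at membranes. Miip, named as an inhibitor of migration and invasion, had 3 and 3 in Myh9 KO cells, against 10 and 8 in WT cells. Hspb11, a subunit of the intraflagellar transport complex that builds cilia, had 7 and 6 in Myh9 KO cells, against 15 and 14 in WT cells. Of 8 other tested subunits of that complex, limma called none, while 2 were lower at an unadjusted p under 0.05 and by the fit with random decimals alone, and the median log2 fold change was -0.05.

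In the secreted and matrix group, Fetub encodes fetuin-B. This plasma protein inhibits the egg protease ovastacin and so keeps the zona pellucida penetrable before fertilization. Fetub (ENSMUSG00000022871, mm10 chromosome 16, 22918382 to 22939766) had 3 in each Myh9 KO library, against 27 in each WT library (log2 fold change -2.81, SE 0.02). Its paralog Ahsg, which encodes fetuin-A, had 2 and 1 in Myh9 KO cells, against 5 and 5 in WT cells (log2 fold change -1.29, SE 0.26, adjusted p = 0.092 in limma). Chit1, a secreted chitinase, had 1 and 0 in Myh9 KO cells, against 8 and 8 in WT cells.

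Igfbp3, a carrier of insulin-like growth factors, had 3 and 3 in Myh9 KO cells, against 10 and 12 in WT cells. Igfbp2, another carrier, fell to 365 and 399 in Myh9 KO cells, against 626 and 611 in WT cells (log2 fold change -0.70, SE 0.06, adjusted p = 0.0266 in limma). Both carriers were thus lower in Myh9 KO cells, and Igfbp2 was the single one called among 3 other tested carriers. Pglyrp1, which binds bacterial peptidoglycan, had 9 and 7 in Myh9 KO cells, against 26 and 24 in WT cells. Adam19, a membrane-anchored metalloprotease that sheds growth factors, had 8 and 10 in Myh9 KO cells, against 22 and 25 in WT cells. Of 5 other tested ADAM proteases, limma called 0, also at an unadjusted p under 0.05 and with random decimals alone. Ext1, one of the polymerases of heparan sulfate, had 5 and 6 in Myh9 KO cells, against 13 and 14 in WT cells. Cpxm1, a secreted carboxypeptidase-like protein, had 18 and 17 in Myh9 KO cells, against 36 and 39 in WT cells.

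Membrane and surface proteins formed the largest group. Prnp (ENSMUSG00000079037, mm10 chromosome 2, 131909928 to 131938429), which encodes the prion protein, had 1 in each Myh9 KO library, against 9 and 8 in WT cells (log2 fold change -2.25, SE 0.07). Ceacam10, of the carcinoembryonic antigen family, had 0 and 1 in Myh9 KO cells, against 8 and 8 in WT cells. Marveld1, which spans the membrane with a MARVEL domain, had 6 and 5 in Myh9 KO cells, against 24 and 22 in WT cells. The log2(value + 1) scale understates such differences of low genes. Cd38, an enzyme that consumes NAD at the cell surface, had 2 and 2 in Myh9 KO cells, against 8 and 9 in WT cells. Clca3b, of the family of calcium-activated chloride channel regulators, and Lrrn2, a leucine-rich repeat protein of neurons, each had 2 and 2 in Myh9 KO cells, against 9 and 8 in WT cells.

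Tnfrsf8 encodes CD30, a receptor of the tumour necrosis factor family that is best known from activated lymphocytes and from human embryonal carcinoma. Tnfrsf8 had 4 and 4 in Myh9 KO cells, against 14 and 15 in WT cells (log2 fold change -1.63, SE 0.05). Plscr1, a phospholipid scramblase induced by interferon, had 28 and 27 in Myh9 KO cells, against 81 and 81 in WT cells (log2 fold change -1.52, SE 0.03). Of the 3 other tested scramblases, limma called 0, and 1 was higher at an unadjusted p under 0.05 (0 with random decimals alone). Fxyd6, a regulator of the sodium pump, had 29 and 29 in Myh9 KO cells, against 62 and 69 in WT cells. Ly6g6e, a glycolipid-anchored Ly6 protein, had 9 and 10 in Myh9 KO cells, against 24 and 24 in WT cells. It overlaps Ly6g6d on the opposite strand, which had 4 and 7 in Myh9 KO cells, against 4 and 5 in WT cells. The groups of Ly6g6d overlapped. Ramp3, which carries the receptors of calcitonin-related peptides to the surface, had 3 and 4 in Myh9 KO cells, against 9 and 11 in WT cells. Fndc10, a protein with a fibronectin type III domain, had 10 and 10 in Myh9 KO cells, against 20 and 21 in WT cells.

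The metabolic enzymes belonged to separate pathways. Ckmt1, the mitochondrial creatine kinase that moves phosphate from ATP onto creatine, had 11 and 12 in Myh9 KO cells, against 29 and 27 in WT cells. AA467197, a small mitochondrial protein related to a subunit of cytochrome oxidase, had 41 and 35 in Myh9 KO cells, against 83 and 86 in WT cells. Fbp2, the muscle form of the gluconeogenic fructose bisphosphatase, had 2 and 3 in Myh9 KO cells, against 8 and 9 in WT cells. These genes share no step. Cmah, which hydroxylates sialic acid and is inactive in humans, had 3 and 2 in Myh9 KO cells, against 8 and 9 in WT cells. Npl, the lyase that breaks sialic acid down, rose to 29 and 27 in Myh9 KO cells, against 14 and 13 in WT cells (log2 fold change 1.00, SE 0.06, adjusted p = 0.018 in limma). Rpe, an epimerase of the pentose phosphate pathway, had 4 and 4 in Myh9 KO cells, against 10 and 10 in WT cells. Of 6 other tested enzymes of that pathway, Pgd was called, with 277 and 285 in Myh9 KO cells, against 333 and 340 in WT cells (log2 fold change -0.26, SE 0.02, adjusted p = 0.0293 in limma). In the opposite direction, 2 enzymes were higher at an unadjusted p under 0.05, of which Pgls had 273 and 326 in Myh9 KO cells, against 226 and 227 in WT cells (log2 fold change 0.40, adjusted p = 0.147 in limma). Mthfsl, a relative of the folate enzyme methenyltetrahydrofolate synthetase, had 2 and 2 in Myh9 KO cells, against 9 and 8 in WT cells. Of its 50-base words, 23.9% occur in other genes. Mthfs, the 1 other tested gene of that family, had 6 and 4 in Myh9 KO cells, against 9 and 10 in WT cells (log2 fold change -0.83, SE 0.22, adjusted p = 0.136 in limma). It was called lower by random decimals alone. Dio3, an imprinted gene for the deiodinase that inactivates thyroid hormone, had 4 and 4 in Myh9 KO cells, against 9 and 10 in WT cells. Of 4 other tested genes of its imprinted domain, limma called 0, while 2 were higher at an unadjusted p under 0.05 and 1 with random decimals alone.

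Histones of the Hist1 cluster made up 3 of the 7 nuclear genes. Most histone mRNAs of this cluster end in a stem-loop and carry no poly(A) tail, and these libraries were made from RNA enriched on oligo-dT beads. Hist1h4i, a core histone gene, had 5 and 3 in Myh9 KO cells, against 17 and 20 in WT cells (log2 fold change -1.99, SE 0.28). Hist1h2bc, another core histone gene, had 5 and 6 in Myh9 KO cells, against 15 and 20 in WT cells. Hist1h1c, a linker histone gene, had 8 and 7 in Myh9 KO cells, against 17 and 18 in WT cells. Of 31 other tested genes of the cluster, limma called none by both tests, while 2 were lower at an unadjusted p under 0.05, and random decimals alone called 2 lower and 1 higher. Their median log2 fold change was -0.29. Hist1h2bc and Hist1h4i share 30.1% and 28.9% of their 50-base words with other genes, mostly other histone genes of the cluster by the leading matches, so their values are uncertain.

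The other nuclear genes included Orc4, a subunit of the origin recognition complex that licenses DNA replication, which had 4 and 4 in Myh9 KO cells, against 8 and 10 in WT cells. The other 5 subunits were tested and limma called 0, also at an unadjusted p under 0.05 and with random decimals alone. Their log2 fold changes lay between -0.18 for Orc5 and 0.12 for Orc6. Sall3, a zinc finger factor related to the ES cell factor Sall4, had 4 and 4 in Myh9 KO cells, against 8 and 8 in WT cells. Tcfl5, a basic helix-loop-helix factor of male germ cells, had 6 and 7 in Myh9 KO cells, against 14 and 15 in WT cells. Btbd11, a protein with ankyrin repeats and a BTB domain, had 4 and 4 in Myh9 KO cells, against 11 and 14 in WT cells.

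Of the genes of apoptosis, stress and ubiquitin, Apol6, an apolipoprotein L family member, had the largest difference. It had 1 in each Myh9 KO library, against 10 and 11 in WT cells (log2 fold change -2.52, SE 0.06). Pmaip1, which encodes the BH3-only protein Noxa and is a classical p53 target, had 5 and 3 in Myh9 KO cells, against 10 and 10 in WT cells. Bid, another BH3-only gene, rose to 54 and 61 in Myh9 KO cells, against 36 and 36 in WT cells (log2 fold change 0.66, SE 0.08, adjusted p = 0.0422 in limma). Of 29 tested p53 target genes, 1 rose and 2 fell by both tests, where 5.11% and 5.83% of all tested genes did, and random decimals alone called 8 lower. Their median log2 fold change was -0.22, and -0.19 without Pmaip1. Ddit4l, an inhibitor of the growth kinase mTOR, had 3 and 4 in Myh9 KO cells, against 8 and 10 in WT cells. Rnf135, a ubiquitin ligase of antiviral RNA sensing, had 4 and 4 in Myh9 KO cells, against 10 and 9 in WT cells. Usp46, a deubiquitinase, had 8 and 8 in Myh9 KO cells, against 16 and 20 in WT cells. Of 4 other tested genes of its complex, 0 passed limma, an unadjusted p under 0.05 or random decimals alone. Dusp12, a dual-specificity phosphatase, had 30 and 32 in Myh9 KO cells, against 66 and 65 in WT cells. Of its 50-base words, 43.4% occur in other genes on the opposite strand.

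Both lost gamma-crystallins are structural proteins of the lens, and their genes are 10723 bases apart on chromosome 1. Crygd had 3 and 5 in Myh9 KO cells, against 19 and 25 in WT cells (log2 fold change -2.22, SE 0.31). Cryge had 2 and 5 in Myh9 KO cells, against 18 and 20 in WT cells (log2 fold change -2.24, SE 0.44). The Myh9 KO values of the pair lay far apart in relative terms, and neither gene was called by both tests. Of the words of Cryge, 28.1% occur in Crygd, so reads of the pair may have been split between them. Another crystallin gene, Crygc, had 2 and 3 in Myh9 KO cells, against 8 and 6 in WT cells (log2 fold change -1.20, SE 0.24, adjusted p = 0.0946 in limma). The 100 bases before each start that RefSeq gives are shown because the pair also shares promoter sequence there. Both lie on the minus strand of GRCm38.p6 from RefSeq, at chr1:65063441-65063540 for Crygd and chr1:65051164-65051263 for Cryge, and the capitals mark the longest run, of 56 bases, that they have in common.
Crygd: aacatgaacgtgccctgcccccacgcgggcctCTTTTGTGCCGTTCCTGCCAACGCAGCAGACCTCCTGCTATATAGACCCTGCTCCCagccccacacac
Cryge: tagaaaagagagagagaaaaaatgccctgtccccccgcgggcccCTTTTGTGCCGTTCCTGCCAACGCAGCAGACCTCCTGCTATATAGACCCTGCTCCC

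D13Ertd608e (ENSMUSG00000095514, mm10 chromosome 13, 119836006 to 119846570) was the single lost gene listed at 0 in both Myh9 KO libraries, against 14 and 15 in WT cells. A value of 0 in this table can be a failed estimate, and no fold is given. Of its 50-base words, 89.6% occur in Gm21762, which was listed at 0 and 0 in Myh9 KO cells and at 2 and 1 in WT cells. Its flanking gene Tcstv1, of the two-cell-like state, was listed at 0 in both Myh9 KO libraries, against 12 and 14 in WT cells. D13Ertd608e and Ddit4l were the lost genes in a list of two-cell-like genes, of which 24 were tested and 19 fell, where 5.83% of all tested genes did. Without these lost genes 18 of 22 fell. The 19 falls became 10 without either Myh9 KO library, 17 without WT 1 and 18 without WT 2. The list was put together with these results known, and it holds genes of a family that the rule left out, such as Usp17le. Aard, a gene named for an alanine- and arginine-rich domain, had 28 and 26 in Myh9 KO cells, against 71 and 67 in WT cells, and 0.0% of its words occur in other genes.

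Among the largest fold changes were those of transcripts named after genomic clones. RP24-496C8.9 had 9 and 6 in Myh9 KO cells, against 132 and 146 in WT cells (log2 fold change -4.06, SE 0.23). RP23-228C13.2 had 4 and 4 in Myh9 KO cells, against 72 and 84 in WT cells (log2 fold change -3.98, SE 0.10). RP24-496C8.8 had 1 and 1 in Myh9 KO cells, against 26 and 34 in WT cells. The ratio of the lower WT to the higher Myh9 KO value was between 14.7 and 26 in these transcripts. RP23-285L15.1 had 3 and 1 in Myh9 KO cells, against 36 and 42 in WT cells. RP23-309H21.1 had 5 and 6 in Myh9 KO cells, against 19 and 18 in WT cells. GENCODE vM21 gives all 5 a name of Gm plus a number, so under current names the rule would have removed them and 55 genes would remain, with a median log2 fold change of -1.42.

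These transcripts are not independent of one another. RP24-496C8.9 and RP24-496C8.8 overlap on opposite strands within Mcm9, which had 5 and 4 in Myh9 KO cells, against 6 and 6 in WT cells and was not called. RP23-285L15.1 and RP23-309H21.1 lie 37622 bases apart on chromosome 10. Of the words of RP24-496C8.9, 64.7% occur in RP23-228C13.2 and 53.8% in RP24-496C8.8. Each of the 5 shared words with between 36 and 162 other genes, so their values are uncertain. Tmem72, which holds 61.5% of the words of RP24-496C8.8 and 60.8% of those of RP23-285L15.1, was listed at 0 in both Myh9 KO libraries, against 7 and 8 in WT cells.

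Of the remaining non-coding transcripts, AI662270 shared under 25% of its words with other genes and the others shared none. C78283 had 1 and 1 in Myh9 KO cells, against 14 and 12 in WT cells (log2 fold change -2.80, SE 0.09). AI662270 had 1 and 0 in Myh9 KO cells, against 8 and 8 in WT cells. Platr3 and Platr27 are named as pluripotency-associated transcripts. Platr3 had 17 and 11 in Myh9 KO cells, against 64 and 47 in WT cells, and Platr27 had 2 and 3 in Myh9 KO cells, against 8 and 10 in WT cells. Of 9 other tested Platr transcripts, Platr15 rose and Platr17 fell by both tests, and the median log2 fold change of the 9 was -0.56. At an unadjusted p under 0.05 in limma, 2 were higher and 3 lower. Random decimals alone called 2 higher and 2 lower. Platr17 had 94 and 95 in Myh9 KO cells, against 117 and 117 in WT cells (log2 fold change -0.31, SE 0.01, adjusted p = 0.00825 in limma). Platr15 had 44 and 46 in Myh9 KO cells, against 33 and 33 in WT cells (log2 fold change 0.44, SE 0.03, adjusted p = 0.0202 in limma). Over all 60 lost genes, 9 had at least 25% of their words in other genes on the same strand and 34 had none. The libraries mark no strand, so words on the opposite strand count too. Dusp12 and Nefl, with 0.0% on the same strand, had 43.4% and 31.8% on the opposite one.

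Whether the relatives of the lost genes moved with them was looked at in 40 families, complexes and pathways chosen after the genes were known. In 8 of them no other gene was tested. Of 148 other genes tested, 6 rose and 6 fell, 4.05% in each direction, where 5.11% of all tested genes rose and 5.83% fell. Their median log2 fold change was -0.07. Of the 12 calls, 6 remained when either Myh9 KO library was left out and 2 (Myl12a and Tagln2) when either WT library was left out, with no change of sign. The Hist1 cluster held 3 lost genes and the crystallins and Platr transcripts 2 each. Beside the relatives named above, Dusp11 and Dusp9 rose and Dusp1 and Dusp27 fell among the dual-specificity phosphatases. Ly6a had a larger difference than its lost relative Ly6g6e, with 1 and 2 in Myh9 KO cells, against 8 and 7 in WT cells (log2 fold change -1.79, SE 0.27, adjusted p = 0.06 in limma), and missed the rule by its WT value of 7.

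**Figure D3:**
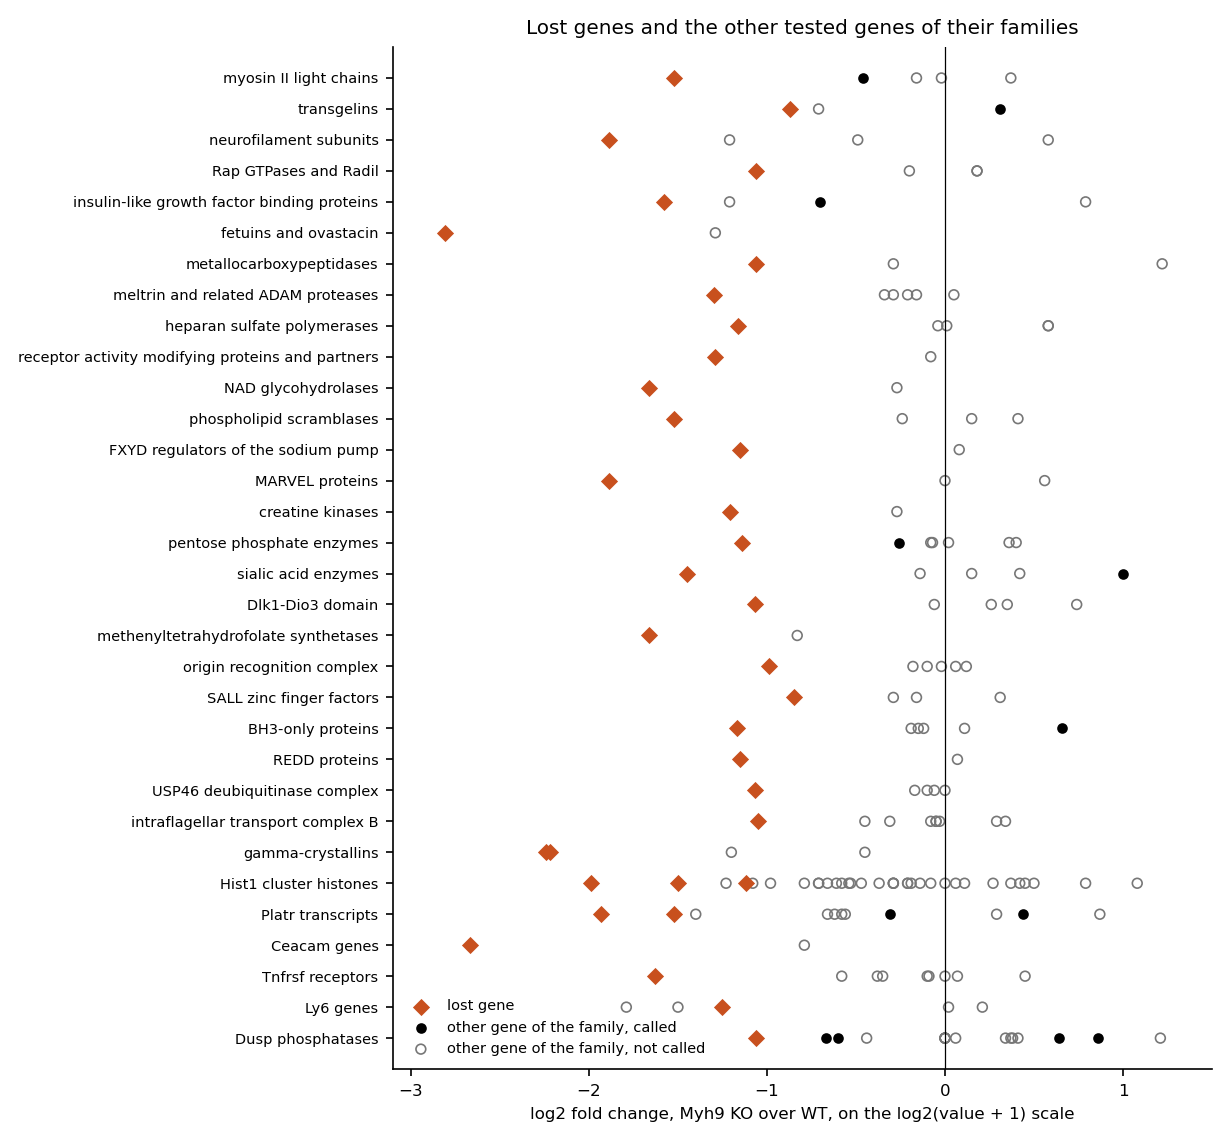
Log2 fold change, Myh9 KO over WT, of the lost genes (diamonds) and of the other tested genes of the same family (circles, filled where called by both tests), 1 family per row. Every lost gene lies left of 0 by the rule, while the other genes spread around 0 with a median of -0.07.

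Pathway lists gave few lost genes, and their counts are to be read against the 5.11% of all tested genes that rose and the 5.83% that fell. The lists and these shares keep genes of the chromosomes, families and names that the rule left out of the lost genes. List genes and lost genes are thus not drawn from the same genes, and list counts without those chromosomes were not made. Of 48 tested actomyosin genes, 6 rose and 7 fell, with a median log2 fold change of -0.13, and Myl9 was the lost gene among them. Of 33 tested genes of the extracellular matrix, 3 rose and 12 fell, with a median of -0.05, and Igfbp3 was the lost one. The oocyte and germline list held no lost gene, as Zp3 was left out by name and the list does not hold Tcfl5. Of its 21 tested genes, 10 fell and 1 rose. In the naive pluripotency list, 9 of 33 fell, with a median of -0.15. Among 24 tested genes of the interferon-induced list, which does not hold Plscr1, 5 rose and 4 fell, with a median of 0.10. Of 34 tested NRF2 and xenobiotic genes, 3 rose and 10 fell, with a median of -0.26. The imprinted list, which does not hold Dio3, had 6 genes that rose and 3 that fell among 30 tested. Amino acid and one-carbon genes split into 5 that rose and 7 that fell among 39 tested. Lipid genes split into 3 and 6 among 40 tested, WNT, BMP, NODAL and FGF genes into 6 and 4 among 43 tested, and surface genes of ES cells into 4 and 5 among 41 tested, rises given first. With 1 library left out, the falls were 1 to 3 in the matrix list, 1 to 5 in the naive list and 1 to 6 in the NRF2 list, lowest without either WT library, and 4 to 6 in the germline list. Each other count of these pathway lists then lay between 0 and 6. Of the marker lists, trophoblast markers had 4 rises among 11 tested and ES cell markers had 3 falls among 11 tested. Endoderm markers had 2 rises and 1 fall among 8 tested, neural markers 1 fall among 6 tested and feeder markers 1 fall among 3 tested.

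The genes beside the lost ones on the chromosome were looked at next, since position was used by the rule only to drop chromosomes. The nearest tested gene on each side was taken, passing over other lost genes and overlapping genes. Genes that the rule left out by name or family were not passed over. Of 110 such genes, 1 rose and 10 fell, which is 9.09% lower, where 5.83% of all tested genes fell and 5.11% rose. Their median log2 fold change was -0.18. Within 50 kb, 5 of 47 fell (10.6%), with a median of -0.29. Avpi1, 18341 bases from Marveld1, fell to 61 and 64 in Myh9 KO cells, against 118 and 114 in WT cells (log2 fold change -0.88, adjusted p = 0.0095 in limma). Akr1cl, which lies beside the crystallin pair, was listed at 0 in both Myh9 KO libraries, against 2 and 2 in WT cells. Cry1, the nearest gene below Btbd11, fell to 13 and 13 in Myh9 KO cells, against 22 and 22 in WT cells (log2 fold change -0.72, adjusted p = 0.00406 in limma). The others that fell were Tcstv1 and AF067063 beside D13Ertd608e, Trim43a, Lrrn4, Blcap, Gm20707 and Gm10020. Tcstv1, Gm20707 and Gm10020 bear names that the rule left out, and Trim43a is in the list of two-cell-like genes. Tcstv1, at 0 in both Myh9 KO libraries, against 12 and 14 in WT cells, passed both value thresholds of the rule. Its fall is thus no observation apart from the rule, and the share without such genes was not counted. Cyfip2, 46507 bases from Adam19, was the one that rose, to 5 and 6 in Myh9 KO cells, against 2 and 2 in WT cells (log2 fold change 1.11, adjusted p = 0.0277 in limma). Of these 11 calls, 8 remained when either Myh9 KO library was left out and 3 (Cry1, Tcstv1 and Trim43a) when either WT library was left out, with no change of sign. Lost genes that followed each other on a chromosome within 1 Mb were the crystallins, both pairs of clone-named transcripts, Hist1h2bc with Hist1h1c (46320 bases), C78283 with Usp46 (50077 bases), Ramp3 with Igfbp3 (528611 bases), Hist1h1c with Cmah (587053 bases) and Myl9 with Platr27 (813925 bases).

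**Figure D4:**
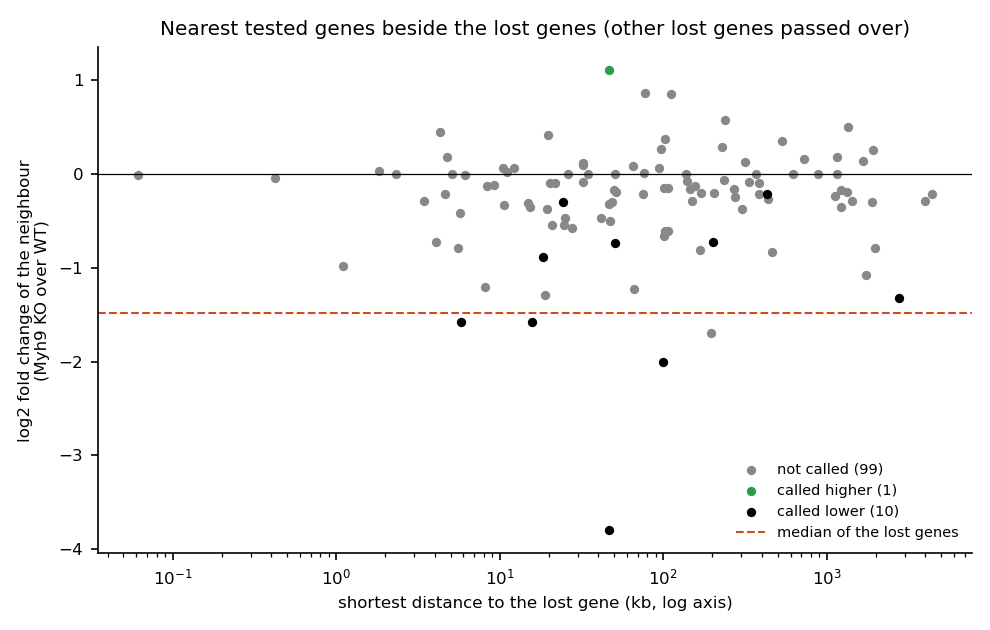
Log2 fold change, Myh9 KO over WT, of the nearest tested gene on each side of every lost gene, with other lost genes and overlapping genes passed over, against its shortest distance to such a lost gene in kb on a log axis, 110 genes in all. Of these, 10 are called lower (black) and 1 higher (green), and the median of all 110 is -0.18, against the dashed median of the lost genes, -1.48.

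Promoter sequences of 300 bases, 250 before to 50 after the start, were found for 41 of the 60 lost genes and for 8476 tested genes. The tested genes had a mean value of at least 1 and include the chromosomes and families left out. They are thus not matched to the lost genes in level, chromosome or family. The promoters of the lost genes held a median of 13 CpG pairs, against 22 over all tested genes. At least 10 CpG pairs were present in 28 of 41 lost-gene promoters (68.3%), against 86.8% of all tested ones. Cd38 with 1 CpG pair, Chit1 with 2 and Cmah with 3 were at the low end, and Adap1 with 51 was at the high end. Median GC content was 57.33% in these promoters, against 61.33% over all tested promoters. The longest transcripts of the lost genes had a median length of 2204 bases, against 3056 over all tested genes, and a median GC content of 51.15%, against 50.76%. Across 5 classes of transcript GC content, the median log2 fold change of all tested genes went up with GC content, with -0.15 in the lowest class and 0.11 in the highest, and the lost genes numbered 14, 13, 8, 16 and 9 in these classes.

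**Figure D5:**
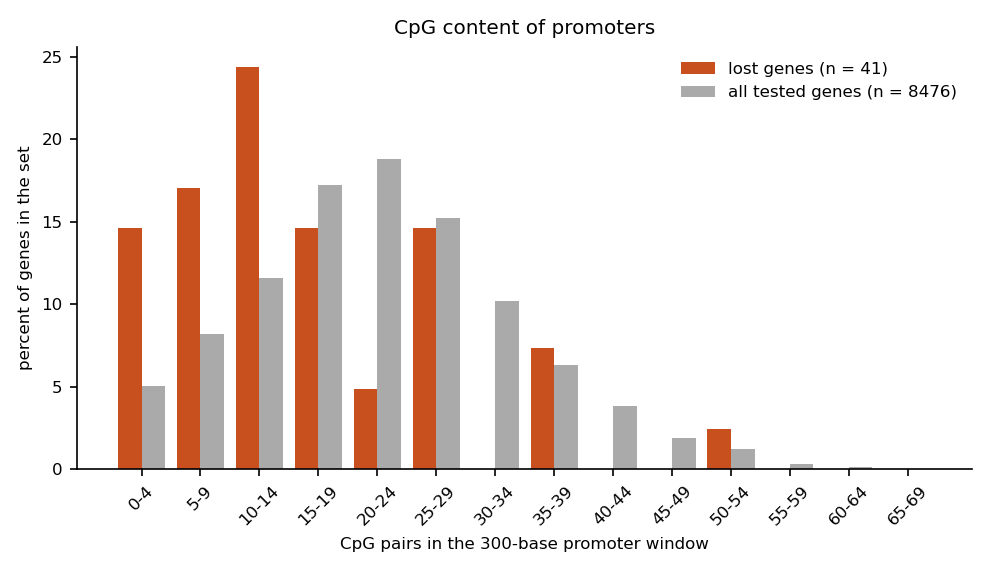
Percent of promoters by their number of CpG pairs in 300 bases, for the lost genes (n = 41, left bars) and all tested genes (n = 8476, right bars). Promoters with 0 to 14 pairs are more frequent among the lost genes, whose median is 13 against 22.

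Of 7 motifs searched on both strands of these promoters, TGANTCA differed most in its share. This pattern takes in the element of the AP-1 factors, which has C or G in the middle, but the search allowed any base there. Its shares are thus not those of AP-1 elements alone, and the match in Clca3b has T in the middle. TGANTCA occurred in 7 of 41 lost-gene promoters (17.1%), against 4.19% of all tested promoters. The TATA element TATAAA occurred in 14.6% of them, against 6.63%. The E-box CACGTG occurred in 9.76%, against 10.6%, the TEAD element GGAATG in 14.6%, against 11.6%, and GCGGGA, the core of E2F sites, in 36.6%, against 38.1%. The CRE element TGACGTCA was in none of the 41, against 3.45% of all. A match describes letters in this window and no more, and the shares were not compared at equal CpG content or WT level. The TGANTCA of Fbp2 overlaps a CACGTG by 2 bases, and that of Prnp overlaps a GGAATG by 2 bases. The 7 promoters with TGANTCA are shown with 10 bases on each side and the motif in capitals, read along the strand of the gene, from RefSeq on GRCm38.p6. Their places are chr2:122637804-122637830 (plus strand) for AA467197, chr11:46055843-46055869 (plus) for Adam19, chr1:134111180-134111206 (plus) for Chit1, chr3:144849344-144849370 (minus) for Clca3b, chr13:62858431-62858457 (minus) for Fbp2, chr2:131909816-131909842 (plus) for Prnp and chr4:145315280-145315306 (minus) for Tnfrsf8. Each motif begins between 47 and 132 bases before the start that RefSeq gives.
AA467197: gcacgtgagtTGACTCAgtgcgacgcg
Adam19: gtccttcaccTGAGTCAgcgatgctcc
Chit1: taggaagaagTGAGTCActgtagtggt
Clca3b: attctggccgTGATTCAaattcccgag
Fbp2: tccggctatcTGAGTCAcgtggggtgg
Prnp: tccggagcggTGACTCAttcccccacc
Tnfrsf8: tggctagcccTGAGTCAtctctgcacg
These 7 genes belong to 3 of the role groups: the surface proteins Clca3b, Prnp and Tnfrsf8, the secreted and matrix proteins Adam19 and Chit1, and the metabolic genes AA467197 and Fbp2. Their ratios of the lower WT value to the higher Myh9 KO value, given by the values above, ran from 2.02 in AA467197 to 8.0 in Prnp and Chit1.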

How the data were processed

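RNA-seq values of 2 Myh9 KO and 2 WT libraries were used from a single table. The deposited values were taken as a score, since they were whole numbers with nearly equal library sums and not read counts. The submitters' processing notes name bcl2fastq, RSEM 1.3.0 and Bowtie2 2.2.5 with the builds mm10 and hg38, and give no roles. How the values were made whole is not given in the sources used here.

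limma-trend (limma 3.58.1, R 4.3.3) was fitted to log2(value + 1), Myh9 KO over WT, for the 11231 genes whose mean value was at least 1, without a replicate block. A gene was called when the Benjamini-Hochberg adjusted p was under 0.05 both on the deposited values and as the median over 25 draws of random decimals between 0 and 1. The fit was tested on simulated data, with 2 estimates of the spread between replicates. With 200 changed genes, both tests together called 0.926% and 20.4% of 2-fold changes and 20.7% and 41.3% of 4-fold changes. With 2000 changed genes these shares were 47.8% and 65.4%, and 78.6% and 82.1%. Unchanged genes made up at most 1.32% of the calls. A gene that was not called may thus still have changed. SE values come from the fit on deposited values, with n = 2 libraries per group.

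The rule for the lost genes, the 18 gene lists and the families were chosen with earlier results of these data known. Values are given for all 60 lost genes. Other genes are named where a result turns on them, chosen after their values were seen. Identifiers were matched to GENCODE vM21 (50376 of 50600 found, 92.99% with the same coordinates), and all 60 lost genes were found. Words of 50 bases were compared between its transcripts, and promoters came from RefSeq on GRCm38.p6.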

Additional observations from a re-analysis of the deposited data

How the results depend on the processing

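The number of lost genes depends on its thresholds. It was 114 and 26 with a lower WT value of at least 4 and 16, 189 and 24 with a ratio of at least 1.5 and 3, and 132 with nothing left out. It was 42 if decimals had been removed from the values, an alternative chosen after seeing the data, and 72 to 90 with any 1 library left out. Their median log2 fold change of -1.48 became -1.06 with a pseudocount of 4 and -1.83 with nothing left out, and lay between -1.53 and -1.38 with 1 library left out. No fold change of a lost gene reversed in 413 recomputations, which the rule makes all but certain, so it is no support. The nearest to 0 was -0.58, and 138 moved by more than the replicate SD. Over all tested genes, 574 rose and 655 fell. These counts were 1244 and 1353 with random decimals alone, and upper quartile scaling gave 1011 that fell and shifted the median of all genes to -0.03. They were 341 and 414 without Myh9 KO 1, 269 and 299 without Myh9 KO 2, 150 and 207 without WT 1 and 168 and 203 without WT 2, where a lone library is assumed to vary like the other group. Over the genes of all lists, 44 rose and 94 fell, with 74 and 142 by random decimals alone and 10 to 31 and 34 to 41 with 1 library left out. Single list counts moved by over 1.5 times in 162 of 468 recomputations. The replicate block left 10 and 44 calls over all genes and 0 and 7 over the lists. Deviations of same-numbered libraries correlated at 0.0407. With 2 libraries per group and whole-number values this cannot decide whether they were paired, and the labels do not say. The causes of these moves were not tested, beyond fewer libraries or degrees of freedom. Whole-number values limit how finely low genes can be compared, and depth is unknown.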
